A study of Glycine max with 12 samples.

Results

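The middle of soybean chromosome 14 was examined as the set of genes whose identifiers run from Glyma.14G100000 to Glyma.14G135000 and that held 10 or more counts in 3 or more libraries. Glyma.14G117700 and Glyma.14G121400 were left out by the rule. The range held 282 other identifiers, of which 145 (51.4%) met the rule, out of 32246 of the 52872 identifiers of the whole table. The stretch was chosen by the counts of these libraries, selected on genes that differed between event e15 and the nulls. A call of a member in e15 against the nulls, or in e15 against e19, therefore only describes how the stretch was chosen, and no p-value is given for it. The stretch was not chosen by differences in e19, but the count rule used all 12 libraries, those of e19 among them. Event e19 against the nulls is given with its p-values. That contrast shares the null libraries with the choice, so it is not independent of it.

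The libraries came from developing seed of the genotype 93Y21 taken 35 days after flowering, an age at which seeds store protein and oil. The 6 nulls carry the line code 33A. The 3 libraries of e15 (line code 15A) and the 3 of e19 (line code 19A) are marked HOM and come from separate transformation events of a construct that carries the GmUBQ promoter. The title names GmCGS2, a cystathionine gamma-synthase (an enzyme of methionine synthesis), in a form with a deletion. Each event is 1 transformation line. How the null line relates to either event, and whether replicates were separate plants, was not given in the sources used here. The p-values thus cover the spread among these libraries, which may be technical.

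Soybean chromosomes carry most genes and most recombination towards their ends. The central part around the centromere holds many repeats, has fewer genes and recombines rarely, so neighbouring alleles there tend to be inherited together. Soybean also descends from an ancient genome duplication, so many genes have a close copy on another chromosome. Glyma identifiers number genes in order along each chromosome, and that order, not a distance in bases, is the position used here. The files do not pair identifiers with names, so no role is given to any gene, the targeted gene was not checked against the labels, and the tissue label was not checked against seed markers.

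Total counts per library ranged from 19207732 to 23276842. Levels are counts per 1000000 (CPM) with TMM-scaled library sizes, not corrected for gene length. The nulls stood apart in sets by their replicate number, 1 to 3 against 4 to 6, which the labels do not separate. These sets did not overlap for 29.6% of all 32115 genes tested (14.6% higher and 15% lower in nulls 4 to 6), and for 42 of the 144 members tested (29.2%), 25 of them higher and 17 lower. Where this split touches a gene below, both sets are given. The cause of the split was not tested.

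A smaller share of identifiers was measured in the stretch than elsewhere on the chromosome. Of the 1810 identifiers of chromosome 14 outside the range, 1098 (60.7%) held 10 or more counts in 3 or more libraries, against 61% of the whole table. Of the 137 identifiers of the range that did not, 64 had 0 counts in every library. Mean levels of the members were low: 23 members were under 1 CPM, 80 between 1 and 10 CPM and 42 above 10 CPM, and 0 exceeded 100 CPM. All 12 libraries held 10 or more counts for 127 members, and 0 members reached that count in libraries of 1 group alone. Counts that were not whole in some library, as arise when reads are shared between alike genes, were found for 114 members (78.6%), against 77.5% of the tested genes in the rest of the chromosome. Levels of such genes are uncertain.

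At the edge of the count rule, Glyma.14G101300 was the 1 member with 10 counts in exactly 3 libraries. It was also the 1 member too low to be tested. The 4 identifiers with 10 counts in exactly 2 libraries had a third-highest count of 8 or 9. At the edges of the range, Glyma.14G100200, the first member, was at 2.77 ± 0.309 CPM in the nulls (SD, n = 6) and 2.49 ± 0.518 CPM in e15 (SD, n = 3). Glyma.14G134800, the last member, was at 2.52 ± 0.174 and 2.55 ± 0.135 CPM.

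The stretch as a whole took a like share of the counts in every group. Summed over all members, the nulls had 1240 ± 17.5 CPM, e15 1262 ± 22.02 CPM and e19 1238 ± 15.2 CPM (SD, n = 6, 3 and 3). The highest null and the lowest e15 library overlapped, at 1262 and 1244 CPM. The 10 members with the most counts made up 26.5% to 27.8% of the sum in every library. Of the members tested, 76 were higher and 68 lower in e15 than in the nulls, and the median of their log2 changes was 0.01. The median size of the log2 change without its sign was 0.11 in e15 and 0.11 in e19, against 0.10 over all genes tested in each comparison.

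In e15, 7 of the 144 members tested (4.86%) were called at a false discovery rate of 0.05 in edgeR's quasi-likelihood test, 4 risen and 3 fallen, where 0.754% of all genes tested were called (0.258% risen and 0.495% fallen). With nulls 1 to 3 alone 14 members were called, where 7.38% of all genes were, and with nulls 4 to 6 alone 6, where 0.797% were. This contrast chose the stretch, so nothing is read from that count. Of the members, 14 had e15 and null libraries that did not overlap, 8 higher and 6 lower, where 5.16% of all genes had no overlap (2.33% higher and 2.83% lower). Among the called members both strong differences were losses of low messages, and the other 5 were smaller changes in genes above 5 CPM. In bulk seed RNA, fewer cells of a type and less RNA per cell cannot be told apart.

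Glyma.14G113600 was not detected in e15. Nulls 1 to 6 had 0.5003, 0.763, 0.571, 0.509, 0.985 and 0.713 CPM, which are 12, 19, 14, 11, 21 and 16 counts. The 3 libraries of e15 held 0 counts, while those of e19 had 0.831, 0.526 and 0.562 CPM. Every null and every e19 library thus held 10 or more counts and every e15 library none. Against the floor of 0.137 CPM that 3 counts per library make in e15, the nulls were at least 4.93-fold higher and e19 at least 4.68-fold higher. Its counts were whole in all libraries. Of all genes tested, 0.0187% had 10 or more counts in every null and at most 3 in every e15 library, and this was the 1 member among them. The reverse, presence in e15 and absence in the nulls, was found for 0.0249% of all genes and for 0 members. Between e19 and the nulls, presence in one and absence in the other was found for 0.00311% of all genes in either direction and for 0 members.

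Glyma.14G107350 differed in opposite directions in the events. Nulls 1 to 6 had 0.375, 0.281, 0.489, 0.602, 0.328 and 0.312 CPM. The e15 libraries had 0, 0 and 0.0434 CPM and those of e19 had 1.76, 1.37 and 1.33 CPM. The 3 groups did not overlap, with e15 lowest and e19 highest. All e15 libraries together held 1 count, against 55 in the nulls and 88 in e19. The nulls were 26.1 times as high as e15, with an exact 95% counting interval of 4.49 to 1049, and e19 was 98.1 times as high as e15, with an interval of 17.2 to 3919. Such intervals cover counting error only. All counts were whole, and nulls 1 to 3 (0.382 ± 0.104 CPM) and 4 to 6 (0.414 ± 0.163 CPM) overlapped.

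**Figure D1:**
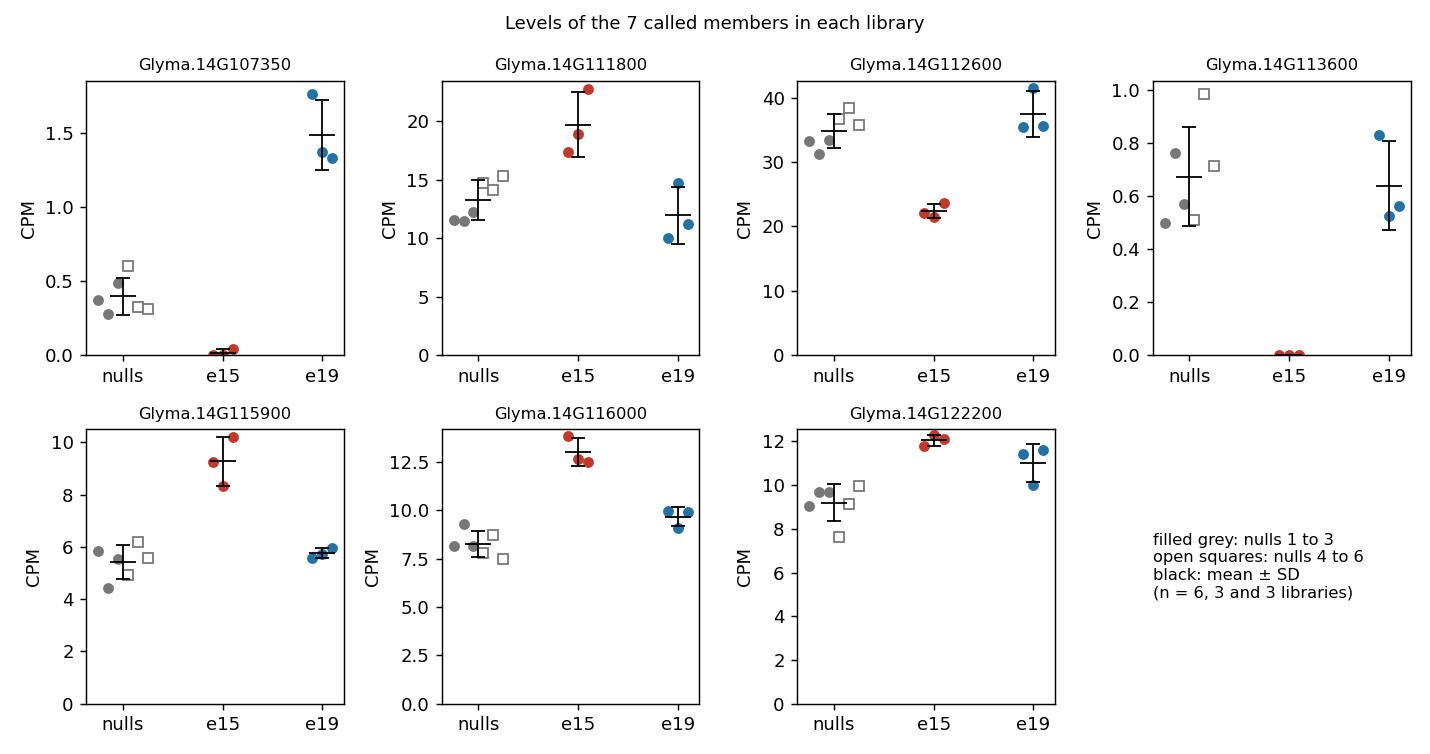
Each panel plots the CPM (y axis, from 0) of 1 of the 7 members called in e15, with a point per library for the nulls (filled circles 1 to 3, open squares 4 to 6), e15 and e19, and the mean ± SD in black (n = 6, 3 and 3). Glyma.14G113600 lies at 0 in all e15 libraries, and for Glyma.14G107350 e19 lies above the nulls while e15 lies at or near 0.

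Glyma.14G112600 was the fallen member with the most counts. Nulls 1 to 6 stood at 33.3, 31.3, 33.4, 36.7, 38.4 and 35.7 CPM, the e15 libraries at 22.1, 21.5 and 23.6 CPM and those of e19 at 35.4, 41.6 and 35.5 CPM. Every e15 library lay below every null and every e19 library. The log2 change was -0.63 ± 0.08 in e15 (SE). The nulls themselves differed without overlap, nulls 1 to 3 at 32.7 ± 1.17 CPM and nulls 4 to 6 at 36.9 ± 1.33 CPM (SD, n = 3), by less than either differed from e15. Counts were not whole in any of the 12 libraries.

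A pair of risen members lay close together. For Glyma.14G115900 nulls 1 to 6 had 5.84, 4.42, 5.54, 4.91, 6.19 and 5.57 CPM, the e15 libraries 9.26, 8.34 and 10.2 CPM and those of e19 5.57, 5.73 and 5.97 CPM. Its e15 libraries were above all others, with a log2 change of 0.78 ± 0.10 (SE) over the nulls. For Glyma.14G116000 the nulls had 8.13, 9.27, 8.15, 7.78, 8.72 and 7.48 CPM, the e15 libraries 13.9, 12.7 and 12.5 CPM and those of e19 9.98, 9.10 and 9.91 CPM. It was likewise higher in every e15 library than in any other, by 0.65 ± 0.08 on the log2 scale (SE) over the nulls. Counts were not whole in 11 and 10 libraries, so reads of either may also fit other genes.

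The member between this pair, Glyma.14G115951, was present or absent library by library. It had 0 counts in 6 libraries (3 nulls, 1 of e15 and 2 of e19) and 18 to 29 counts in the other 6. Nulls 2, 3 and 4 held 1.16, 0.978 and 0.926 CPM, e15 replicates 1 and 2 held 1.29 and 1.14 CPM, and e19 replicate 3 held 0.919 CPM. The split followed neither the events nor the sets of nulls. Its counts were not whole in 6 libraries, and a 0 in a table of estimated counts may be an estimate. Members at 0 in some libraries and at 10 or more counts in all the others numbered 2, this one and Glyma.14G113600, where 0.081% of all genes tested were of this kind.

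The remaining calls in e15, of Glyma.14G111800 and Glyma.14G122200, were absent in many settings. For Glyma.14G111800 nulls 1 to 3 had 11.55, 11.48 and 12.2 CPM and nulls 4 to 6 had 14.8, 14.2 and 15.4 CPM. The e15 libraries had 17.4, 18.9 and 22.8 CPM and those of e19 had 10.02, 14.7 and 11.2 CPM. The e15 libraries were above all others, but the nulls fell into sets that did not overlap, and the call was absent in 10 of 22 alternative settings, among them nulls 4 to 6 alone and the fit without any 1 of the e15 libraries. For Glyma.14G122200 the nulls had 9.05, 9.67, 9.70, 7.64, 9.14 and 9.98 CPM, the e15 libraries 11.8, 12.3 and 12.1 CPM and those of e19 11.4, 9.99 and 11.6 CPM. Here e19 too lay above every null, and the call in e15 was absent in 7 of 22 settings, including library totals alone and the fit without any 1 of the e15 libraries. Glyma.14G122200 had whole counts, while those of Glyma.14G111800 were not whole in any library.

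Members that were not called in e15 lay within a log2 change of -0.62 (Glyma.14G111300) to 0.71 (Glyma.14G113400) in e15. Glyma.14G121200 had the largest log2 difference, 0.71 ± 0.25 (SE), among those at 5 CPM or more that were higher in e15 without overlap. Nulls 1 to 3 had 18.8, 19.03 and 18.3 CPM and nulls 4 to 6 had 25.8, 25.5 and 23.7 CPM. The e15 libraries had 27.1, 33.4 and 46.5 CPM and those of e19 had 11.1, 26.1 and 17.4 CPM. Its spread within each event was wide, and the nulls again fell into sets. Higher in e15 too, Glyma.14G112200 stood at 12.1 ± 1.07 CPM in the nulls and 14.7 ± 0.253 CPM in e15 (SD, n = 6 and 3), and Glyma.14G129600 at 34.4 ± 1.36 and 36.4 ± 0.486 CPM. For Glyma.14G131700 nulls 1 to 3 had 9.21, 7.95 and 8.40 CPM, nulls 4 to 6 had 10.46, 9.33 and 9.53 CPM and the e15 libraries had 7.55, 7.78 and 7.95 CPM. Its null sets did not overlap, and the highest e15 library was below null 2 by less than the printed digits show. Also lower without overlap were Glyma.14G118200 (17.8 ± 0.608 and 16.0 ± 1.32 CPM) and Glyma.14G116800 (49.2 ± 1.82 and 45.9 ± 0.739 CPM).

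Glyma.14G116800 was also the member with the most counts. Several others among the 10 with the most counts had group means close to each other. For Glyma.14G106500 the mean was 42.3 ± 0.929 CPM over the nulls, 44.5 ± 3.76 over e15 and 42.8 ± 3.91 over e19 (SD, n = 6, 3 and 3). Glyma.14G119800 stood at 38.5 ± 2.05, 40.9 ± 2.78 and 38.5 ± 2.04 CPM in the same order, and Glyma.14G131300 at 30.4 ± 2.24, 30.8 ± 1.94 and 30.5 ± 0.572 CPM. For Glyma.14G125200 nulls 1 to 3 averaged 32.3 ± 0.388 CPM and nulls 4 to 6 averaged 30.1 ± 2.12 CPM, sets that did not overlap, next to 31.2 ± 2.53 CPM for e15 and 29.4 ± 5.13 CPM for e19. For Glyma.14G101900 nulls 1 to 3 averaged 27.0 ± 1.73 CPM and nulls 4 to 6 averaged 31.7 ± 0.345 CPM, next to 32.2 ± 2.34 CPM for e15 and 34.6 ± 3.95 CPM for e19.

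The widest split among these was that of Glyma.14G115500 between the nulls. Nulls 1 to 3 had 35.2, 37.3 and 35.4 CPM and nulls 4 to 6 had 22.4, 20.7 and 22.7 CPM. The e15 libraries had 21.9, 21.8 and 16.8 CPM and those of e19 had 18.97, 25.3 and 28.2 CPM. Both events lay below nulls 1 to 3 and overlapped nulls 4 to 6. Its log2 difference from all nulls was -0.53 ± 0.24 for e15 and -0.27 ± 0.24 for e19 (SE), and it was not called in either.

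**Figure D2:**
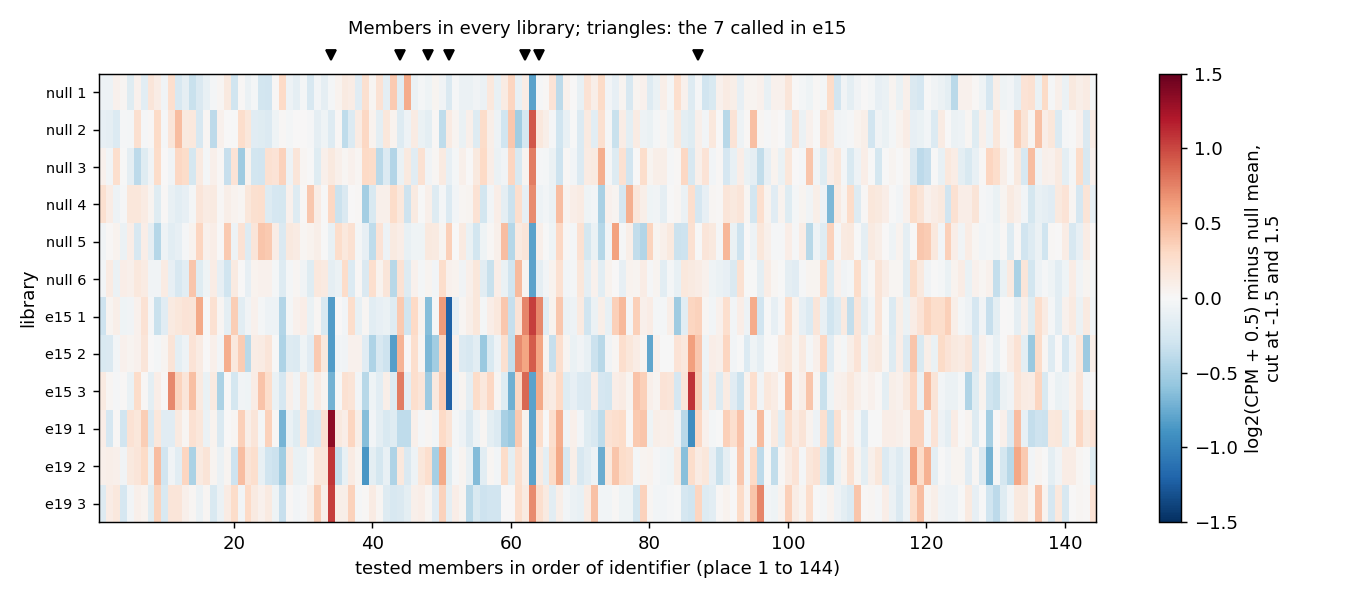
The heatmap shows log2(CPM + 0.5) minus the mean of the nulls (colour, cut at -1.5 and 1.5) for the tested members in order of identifier (x axis) in each of the 12 libraries (y axis), with triangles over the 7 members called in e15. The fallen columns at places 34 and 51 are blue through all e15 libraries, some columns beside the triangles that were not called are coloured too, and the column between the triangles at places 62 and 64 is the member that came and went between libraries.

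In e19, 1 of the 144 members (0.694%) was called in edgeR's quasi-likelihood test, where 0.0747% of all genes tested were called (0.0467% risen and 0.028% fallen). It was Glyma.14G107350, which rose by 1.89 ± 0.30 on the log2 scale (SE, adjusted p = 0.00458). It was higher than every null in 3 of 3 libraries. Its counts were 9, 7, 12, 13, 7 and 7 in the nulls, 0, 0 and 1 in e15 and 36, 26 and 26 in e19. Glyma.14G107350 thus met the count rule only with the help of the e19 libraries, where it was high. Its call in e19, and the share of members called there, are therefore not independent of how the members were chosen. Without e19 replicate 1 the log2 change was 1.75 and the adjusted p in edgeR was 0.103. Over all alternatives the log2 change was 1.75 to 2.04 and the adjusted p 0.000311 to 0.103. With nulls 1 to 3 alone 11 members were called in e19, where 6.24% of all genes were, and with nulls 4 to 6 alone 1, where 0.225% were. An unadjusted p under 0.05 in edgeR was found for 18 members (12.5%), against 7.04% of all genes tested and 8.2% of the rest of chromosome 14. Libraries of e19 and the nulls did not overlap for 9 members (6.25%), 5 higher and 4 lower. Of all genes, 3.15% had no overlap (1.57% higher and 1.58% lower), and of the rest of chromosome 14, 4.64%. The same nulls took part in the choice of the stretch.

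The other 6 members called in e15 lay closer to the nulls in e19 than in e15. They were picked by their difference in e15, so nothing is read from this. The log2 change in e19 was -0.06 for Glyma.14G113600 with a 95% interval of -0.75 to 0.63 and 0.11 for Glyma.14G112600 with an interval of -0.04 to 0.26. It was 0.09 for Glyma.14G115900 (-0.15 to 0.33) and -0.14 for Glyma.14G111800 (-0.43 to 0.14). For Glyma.14G116000 it was 0.23 (0.05 to 0.41) and for Glyma.14G122200 0.26 (0.07 to 0.44), and the adjusted p in edgeR was 0.660 and 0.629. The intervals do not show that these genes were alike in e19 and the nulls.

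Other members lay apart from the nulls in e19 without overlap but were not called. Glyma.14G132000, lower in e19, had 8, 11, 18, 10, 10 and 12 counts in the nulls, 6, 10 and 7 counts in e15 and 4, 2 and 6 counts in e19. In e19 it was lower by a log2 value of -1.27 ± 0.44 (SE), with an adjusted p in edgeR of 0.630. For Glyma.14G105800 nulls 1 to 3 had 1.96, 1.53 and 2.04 CPM, nulls 4 to 6 had 1.16, 1.22 and 1.25 CPM and the e19 libraries had 0.733, 0.894 and 1.07 CPM, so most of its distance to the nulls lay against the first set. Glyma.14G113400 was higher than every null in both events, with a mean of 0.631 CPM over the nulls, 1.03 CPM over e15 and 0.986 CPM over e19. Both comparisons share their nulls. These 3 members were picked after their values were seen.

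Set directly against each other, the events differed for 4 members, where 0.299% of all genes tested were called (0.109% higher and 0.19% lower in e15). Lower in e15 were Glyma.14G107350, Glyma.14G112600 and Glyma.14G113600, and higher was Glyma.14G115900. With library totals alone Glyma.14G111800 was added, so that 2 were higher and 3 lower. The fitted difference of e15 over e19 was -0.74 ± 0.09 for Glyma.14G112600 and 0.69 ± 0.13 for Glyma.14G115900 (log2, SE). The call of Glyma.14G115900 was absent without e15 replicate 3, e19 replicate 1 or e19 replicate 2. Libraries of the events did not overlap for 19 members (13.2%), 8 higher and 11 lower in e15, where 12.2% of all genes had no overlap (5.59% higher and 6.56% lower). In e19, 10 or more counts in every library and at most 3 in each of e15 were found for 2 members, Glyma.14G107350 and Glyma.14G113600, where 0.0187% of all genes tested met this. The reverse was found for 0.0311% of all genes and for 0 members. This contrast holds the e15 libraries that chose the stretch and is a description.

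Along the stretch, the called members lay in its middle. In order of identifier, 33 tested members came before the first called one, Glyma.14G107350, and 57 after the last, Glyma.14G122200, with 54 from the first to the last. In sections of 5000 identifier numbers, the first section, from 100000, had 0 called members of 23 tested, and the next had 1 of 16. The section from 110000 had 3 of 17, that from 115000 had 2 of 27 and that from 120000 had 1 of 14. The last 2 sections, from 125000 and 130000, had 0 of 20 and 0 of 27. Risen and fallen genes were mixed, with 1 fallen in the section from 105000, 2 fallen and 1 risen in that from 110000 and 3 risen beyond it.

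Called genes stood among genes that were not. The tested members next to the 7 called ones, 13 in all, had log2 changes in e15 between 0.00 and 0.71 in size, and 2 of them, Glyma.14G113400 and Glyma.14G121200, had e15 and null libraries that did not overlap. No called member had another called one as its next tested member (0 of 7). Up to 22 uncalled members lay between consecutive called ones, the widest run being that from Glyma.14G116000 to Glyma.14G122200. Both identifiers left out by the rule fall within that run and are not counted in it. Of these, 1 was called in e15 and 1 in e19 against the nulls.

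The section from 110000 had the most called members. Its e15 and null libraries did not overlap for 5 of 17 genes (29.4%), and the median size of its log2 change was 0.20 in e15. Both were exceeded outside the range, where sections reached 32% and 0.22. In e19 the same section had a median size of 0.24, above the 0.07 to 0.16 of the 38 sections outside the range, while 0 of its genes were called there. That middle value was of Glyma.14G112700, at -0.24 ± 0.13 (log2, SE). Several genes of the section lay near or under 1 CPM with wide errors, such as Glyma.14G111300 (-0.49 ± 0.32) and Glyma.14G113400 (0.64 ± 0.28). How much of the median size is counting error was not tested. With its sign, the median of the section was -0.11 for e15 and -0.14 for e19 on the log2 scale. Both events were set against the same nulls.

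**Figure D3:**
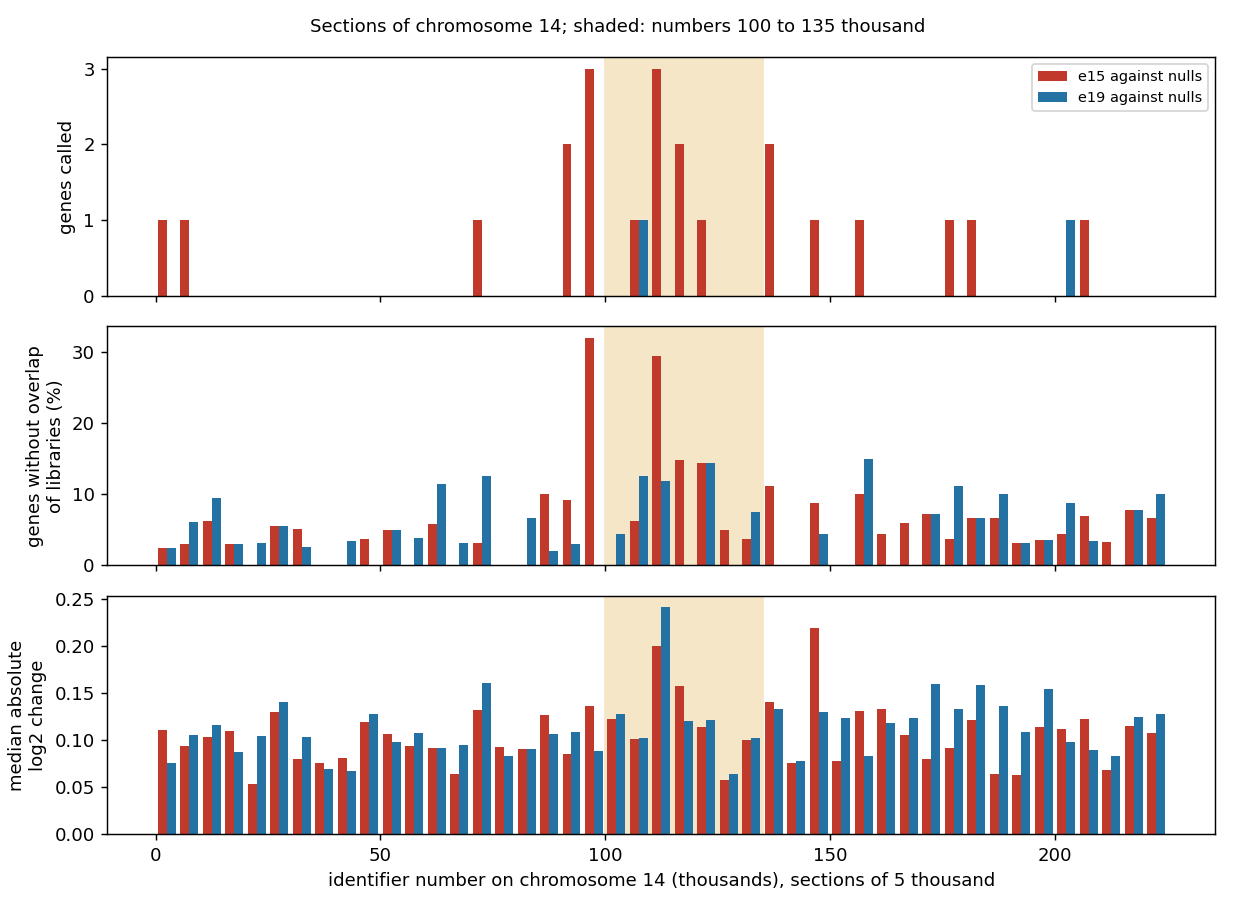
For sections of 5000 identifier numbers along chromosome 14 (x axis, number divided by 1000), bars give the number of genes called (top), the percentage of tested genes whose libraries did not overlap with the nulls (middle) and the median absolute log2 change (bottom), in red for e15 and blue for e19, with the range of the members shaded. Called genes of e15 continue to the left of the shading, where the section from 95000 has 3.

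The calls of e15 did not end at the edges of the range. Of the 23 genes called in e15 on chromosome 14, 7 were members, 1 was an identifier left out by the rule and 15 lay in the rest of the chromosome, which had 1098 genes tested (1.37% called). Of these 15, 7 lay next to the range, 5 in the sections from 90000 and 95000 and 2 in the first section past it. The section from 95000, just before the range, had 3 called genes of 25 tested, and e15 and null libraries did not overlap for 32% of its genes, more than in any section of the range. In e19, 1 gene of the rest was called, and 7 were called between the events, of which 5 lay in those sections. Whether the rest of the chromosome and the range differ was not tested.

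The gene just before the range, Glyma.14G099700, stood at 26.8, 26.5, 25.03, 29.2, 27.8 and 28.7 CPM in the nulls. The e15 libraries had 16.3, 18.3 and 14.9 CPM and those of e19 had 26.4, 24.6 and 25.8 CPM. Like Glyma.14G112600, it was lower in all e15 libraries than in any other. Glyma.14G096800 had 4.23 to 6.61 CPM in the nulls but 1.98, 1.19 and 1.91 CPM in e15, with 5.84 to 6.84 CPM in e19. Just past the range, Glyma.14G136300 had 7 counts in all nulls, 89 in e15 and 5 in e19, and Glyma.14G136351 had 14, 92 and 1. Both were higher in e15, the direction opposite to Glyma.14G113600. They held 10 or more counts in the 3 libraries of e15 alone, so they passed the filter only through that group. Counts of Glyma.14G136351 were not whole in 10 libraries, while those of Glyma.14G136300 were whole in all. Their e15 levels were close, at 1.34, 1.75 and 0.999 CPM for Glyma.14G136300 and 1.43, 1.75 and 1.04 CPM for Glyma.14G136351. The first gene past the range, Glyma.14G135001, followed the sets of nulls instead, at 1.73 to 2.00 CPM over nulls 1 to 3 and at 0.139 to 0.624 CPM over nulls 4 to 6.

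**Figure D4:**
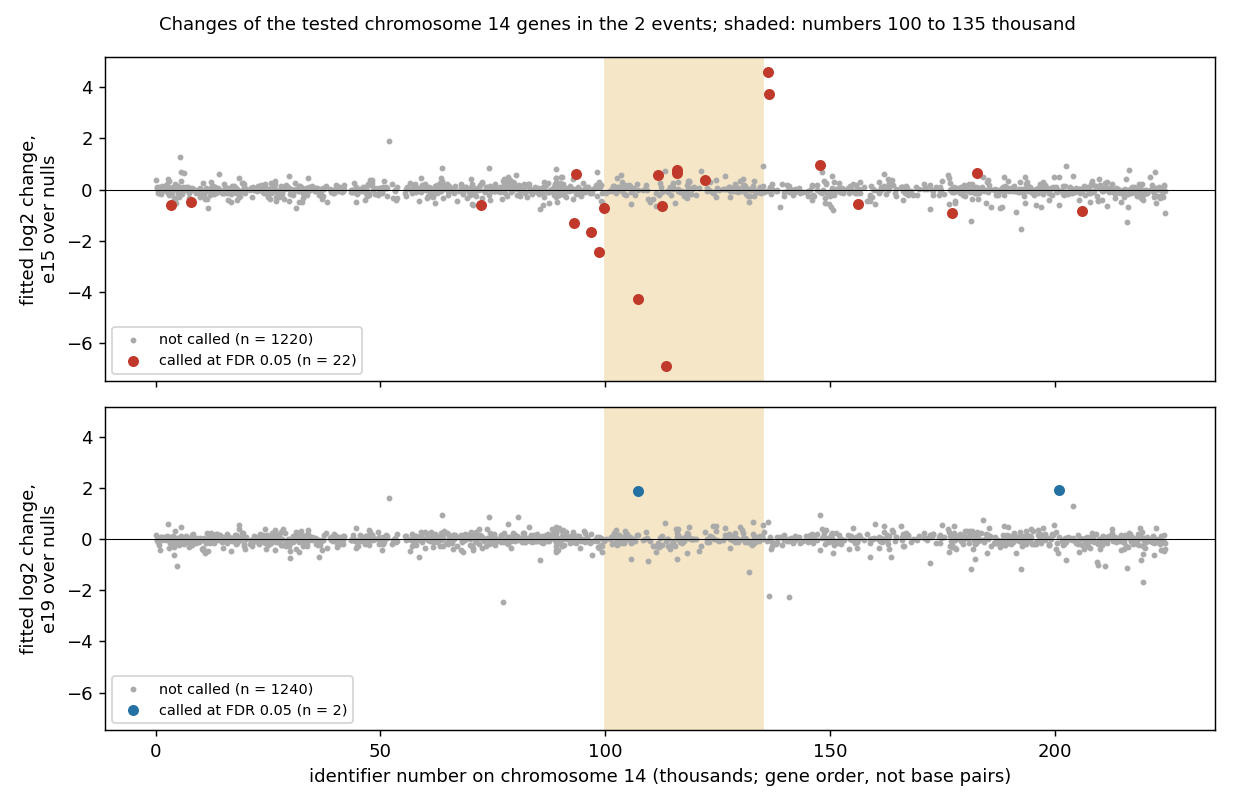
Every point is 1 tested gene of chromosome 14, placed by its identifier number divided by 1000 (x axis) and its fitted log2 change over the nulls (y axis) in e15 (top) and e19 (bottom); coloured points are called, the 2 identifiers left out by the rule are not drawn, and the range of the members is shaded. In e15 called genes sit from just left of the shading to just right of it as well as elsewhere, and the lowest points, Glyma.14G113600 and Glyma.14G107350, are fitted values that depend on the prior count because e15 held 0 counts or 1 count.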

How the data were processed

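The authors deposited 1 table of estimated counts of reads per gene with a column per library, tagged W82a4v1. Per the labels' protocols, polyadenylated RNA was made into stranded libraries and read as single reads of 100 bp. The aligner, the counting program and whether it used strand were not given in the sources used here, so genes that overlap or have alike copies are uncertain. Values were called whole within 0.0005. Columns left unused numbered 0.

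Counts were rounded, filtered with filterByExpr (32115 genes kept), scaled with TMM factors and fitted in 1 model of all 12 libraries with group means, using the quasi-likelihood test of edgeR 4.0.16 (robust, in R 4.3.3). Benjamini-Hochberg adjustment ran over all genes tested, at 0.05. Standard errors came from the fold change and F. DESeq2 1.42.0 was an alternative. A floor was 3 counts per library.

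The members, lists and sections were chosen with earlier results of these data known. Genes named were members called in any contrast, present in 1 group and absent in another, the 10 with the most counts, up to 5 uncalled members per direction without overlap at 5 CPM or more, and those at the edges. Further genes are said to be picked after their values were seen, as were neighbours of called members, Glyma.14G115951 and genes outside the range. Of the identifiers, 0 matched the RefSeq gene table of Glycine_max_v4.0, so no names or sequences are given.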

Additional observations from a re-analysis of the deposited data

Results flagged for a closer look

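For 4 members the events differed when e15 was set against e19 in edgeR, a contrast that contains the libraries that chose the stretch. The fitted log2 difference of e15 over e19 was -6.16 for Glyma.14G107350, -0.74 for Glyma.14G112600, -6.83 for Glyma.14G113600 and 0.69 for Glyma.14G115900. Those of Glyma.14G107350 and Glyma.14G113600 depend on the prior count.

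Among the nulls, 1 library lay far from the others for 2 of the 21 members searched. Glyma.14G116800 was at 52.7 CPM in null 4, with the next null at 49.5 and the lowest at 47.9 CPM, and Glyma.14G119800 was at 42.5 CPM in null 5, with the next at 38.3 and the lowest at 36.6 CPM. Chance flags about 1 in 20 such sets.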

How the results depend on the processing

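The number of members called in e15 (7) was 14 with a replicate block and with nulls 1 to 3 alone, and 3 among members with whole counts. In e19 the number (1) was 9 with the block, 11 with nulls 1 to 3 alone and 2 with the nulls as 2 subgroups. Between the events (4) it was 6 with the block, with nulls 1 to 3 alone, with nulls 4 to 6 alone and with the nulls as 2 subgroups, and 2 among members with whole counts. Fewer genes were counted among those with whole counts. The block is not separate from nulls 1 to 3 alone, since no other group has replicates 4 to 6 and these nulls then add nothing to a comparison. These fits called 2350 and 2348 of all genes in e15 and 1945 and 1986 in e19, and both called all 7 members. For the other settings the cause was not tested. Leaving out each library in turn gave 5 to 7 members in e15, 0 to 1 in e19 and 3 to 5 between the events. DESeq2, RLE factors, library totals alone, other filters and the fit that was not robust left each number within 1.5 times, and a called direction reversed in 0 alternatives. Library totals alone moved the median log2 change of all genes to -0.10 in e15 and -0.13 in e19. For libraries of different groups with the same replicate number, correlations of their deviations were -0.05 to 0.07, and 0 of 9 were over 0.1. Whether such libraries share a plant or a batch was not tested. With sections of 2500 numbers, 5 sections of the range held a called member, against 4 with 5000. Depth limits members under 1 CPM most.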
